A study of Mus musculus with 4 samples.

Results

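The gene-desert peaks of MIXL1 are 736 regions that lay outside the span of every annotated gene and more than 100 kb from the nearest end of a protein-coding gene. They were chosen by the centre of the peak, from the 7791 peaks on chromosomes 1 to 19 except 12, out of a deposited list of 9598 in all. They made up 9.45% of those 7791 peaks (95% Wilson interval 8.82 to 10.1%) and 23.3% of the 3162 peaks whose centre lay outside genes. MIXL1 was tagged with the FLAG epitope in mouse epiblast stem cells, cultured pluripotent cells that correspond to the epiblast after implantation, which carried a doxycycline-inducible Mixl1 gene and were maintained over irradiated feeder fibroblasts in medium with activin A at 20 ng/mL and bFGF at 10 ng/mL. Embryoid bodies of 2 days in serum were collected after 24 h of 1 µg/mL doxycycline, and this induction was common to all 4 libraries. There were 2 libraries from precipitation with an anti-FLAG antibody and 2 libraries of input chromatin. Uninduced cells and a mock precipitation were not analysed here, and the labels do not state whether replicates came from separate cultures or from 1 cell line.

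MIXL1 is a homeodomain protein of the paired type that is made in the primitive streak, the site where mesoderm and endoderm arise. Such homeodomains recognise a TAAT core, and paired-type proteins can bind as dimers to 2 inverted cores separated by 2 or 3 bases. Gene deserts are long stretches without protein-coding genes, and many of them lie beside developmental regulators and hold enhancers that act over long distances. A peak in a desert cannot be assigned to a gene by position alone, so no target is implied. The protein-coding gene on each side is named for the leading stretches and for the widest and farthest peaks. Peaks beside a list gene were counted for it whichever flanking gene was nearer, and the other gene is often not named.

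The list gave positions in build mm10 without a height, score or p-value, and it was a single list for the series. No peak can therefore be compared between replicates, the sequencing depth is unknown, and every interval and p-value covers the counting of peaks only. Neighbouring peaks are not independent, which makes these p-values too small.

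A first view of sequence came from 9 desert peaks that covered at least 100 bases of a promoter window of a long noncoding RNA gene (250 bases before to 50 bases after the annotated start). These 9 were shown because they are the desert peaks for which reference sequence could be read here. The 5 windows with the most bases under the peak are printed in the direction of the gene, with TAAT and its reverse complement ATTA in capitals, from RefSeq on GRCm38.p6, the assembly of mm10.
Gm33176: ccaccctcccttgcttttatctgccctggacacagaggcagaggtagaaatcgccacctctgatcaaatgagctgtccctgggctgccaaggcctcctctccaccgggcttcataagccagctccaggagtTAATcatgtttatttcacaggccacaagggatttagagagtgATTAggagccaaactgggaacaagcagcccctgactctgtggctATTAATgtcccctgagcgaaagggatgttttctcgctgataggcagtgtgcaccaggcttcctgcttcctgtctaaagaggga
Gm39767: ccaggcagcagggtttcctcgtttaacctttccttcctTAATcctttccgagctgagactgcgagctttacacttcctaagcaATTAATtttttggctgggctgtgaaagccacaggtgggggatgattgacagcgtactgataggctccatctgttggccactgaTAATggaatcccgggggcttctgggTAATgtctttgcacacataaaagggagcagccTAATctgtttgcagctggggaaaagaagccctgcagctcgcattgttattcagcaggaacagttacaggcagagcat
Gm34419: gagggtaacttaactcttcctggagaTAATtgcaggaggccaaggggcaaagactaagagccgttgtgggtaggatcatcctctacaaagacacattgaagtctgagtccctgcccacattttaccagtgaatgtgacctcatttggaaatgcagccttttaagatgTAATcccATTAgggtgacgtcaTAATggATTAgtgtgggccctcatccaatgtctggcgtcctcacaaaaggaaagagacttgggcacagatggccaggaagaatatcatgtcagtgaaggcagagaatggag
2610028E06Rik: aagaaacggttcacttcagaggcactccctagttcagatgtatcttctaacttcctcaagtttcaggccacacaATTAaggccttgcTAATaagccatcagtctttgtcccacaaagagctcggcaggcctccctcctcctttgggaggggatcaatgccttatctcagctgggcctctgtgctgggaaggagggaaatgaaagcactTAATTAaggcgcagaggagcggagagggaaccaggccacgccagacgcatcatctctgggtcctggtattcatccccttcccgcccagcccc
A230103O09Rik: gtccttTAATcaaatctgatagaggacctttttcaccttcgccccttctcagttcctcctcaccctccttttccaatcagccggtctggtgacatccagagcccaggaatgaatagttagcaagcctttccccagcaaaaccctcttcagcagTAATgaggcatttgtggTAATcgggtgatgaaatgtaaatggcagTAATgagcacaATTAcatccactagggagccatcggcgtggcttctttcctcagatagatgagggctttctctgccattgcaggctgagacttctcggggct

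The window of Gm33176, at chr1:35941763-35942062 on the plus strand, lay wholly under a 634-bp peak between Plekhb2 and Hs6st1. The window of Gm39767, at chr2:21964118-21964417 on the minus strand, lay wholly under a 444-bp peak between Gpr158 and Myo3a. The window of Gm34419 (chr8:35095110-35095409, plus strand) shared 298 bases with a peak between Tnks and Ppp1r3b. The window of 2610028E06Rik (chr4:125922354-125922653, minus strand) shared 287 bases with a peak between Grik3 and Csf3r, and that of A230103O09Rik (chr13:39823929-39824228, plus strand) shared 286 bases with a peak between Slc35b3 and Ofcc1. All 9 genes were noncoding, since the 100 kb rule excludes the start of a protein-coding gene. A peak over such a start had its centre upstream of it, since the rule also excludes a centre inside the gene.

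The core TAAT, on either strand and with overlapping matches counted, occurred in 9 of the 9 windows, with a median of 4 matches and a range of 2 to 6. Windows of the same gene class are the closest comparison: it occurred in 87 of the 106 long noncoding RNA windows under other peaks (82.1%, median 2) and in 69.4% of all 10757 such windows. Over genes of every type, it occurred in 237 of the 306 windows under other peaks (77.5%) and in 57.9% of all 30119. The peaks covered 2254 of the 2700 bases of the 9 windows (83.5%), which were chosen for that overlap, and 32 of the 34 cores (94.1%). A core lay in the covered part of 8 windows. The exception was Gm38579, of which 100 bases were covered. The median GC content was 49.3% in the 9 windows, against 51.5% in long noncoding RNA windows under other peaks, 48.3% in all long noncoding RNA windows and 53.0% in windows of every type.

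Inverted pairs of cores were found in the Gm34419 window alone among the 9. It held TAATggATTA at bases 190 to 199 and TAATcccATTA at bases 168 to 178, counted from the 5′ end of the window, which are the forms TAATNNATTA with 2 free bases and TAATNNNATTA with 3. The form with 2 free bases occurred in 2 of the 106 long noncoding RNA windows under other peaks, in 0.511% of all such windows and in 0.395% of windows of every type. The form with 3 free bases occurred in 3 of 106, in 0.734% and in 0.508%. Each TAAT core within a pair also counts as a single core.

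Motifs of other factors were searched on both strands of the same windows, and the shares in brackets are those of long noncoding RNA windows under other peaks, of all long noncoding RNA windows and of windows of every type, in that order. AGATAA of GATA factors was in 4 of 9 windows (10.4%, 14.0% and 11.2%), and ACAAAG of SOX and TCF factors was in 4 of 9 (21.7%, 22.3% and 18.7%). CAGCTG of basic helix-loop-helix factors was in 4 of 9 (26.4%, 17.7% and 16.4%), and GGATTA of bicoid-type homeodomains, a motif that contains ATTA and so overlaps the core, was in 2 of 9 (8.49%, 8.26% and 7.09%). CAGACA of SMAD proteins was in 2 of 9 (33.0%, 25.1% and 20.9%), and GGGCGG of SP factors was in 1 of 9 (23.6%, 16.3% and 36.0%). No match was found for AATCCACA of FOXH1, TGTTTAC of forkhead factors, CTTTGAT of TCF and LEF factors, TCACACC of T-box factors or ATGCAAAT of POU factors. These counts are over whole windows and not only the part under the peak. The CAGCTG of Gm32123 and Gm38579, the ACAAAG of Gm32123 and the GGGCGG of 2610028E06Rik lay outside the part under the peak. With 9 windows these shares are a description.

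**Figure D1:**
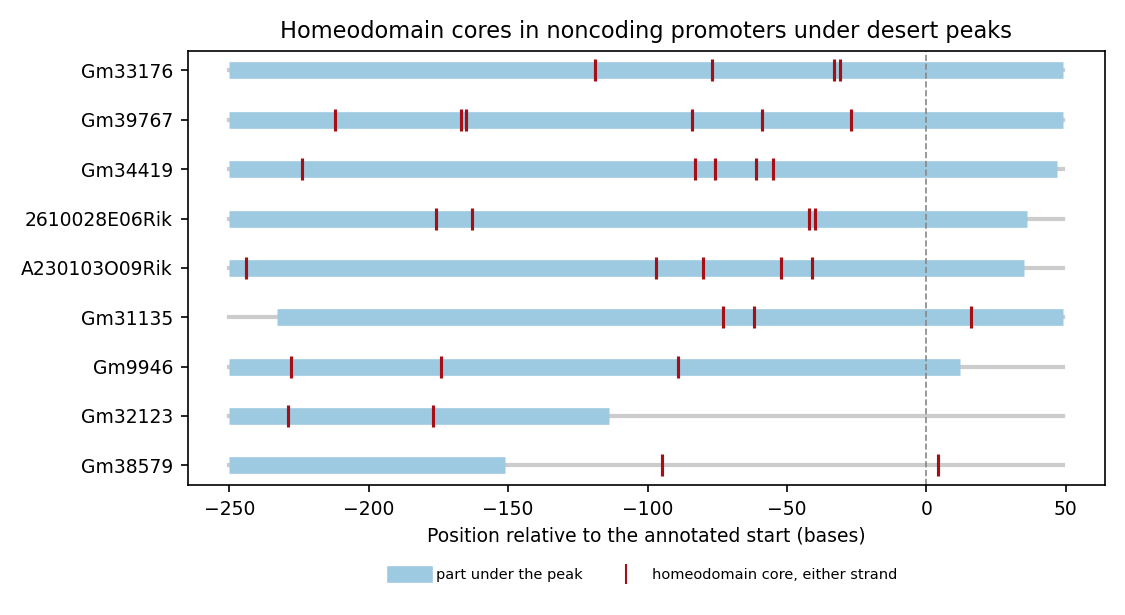
Positions of the homeodomain core (red marks) in the 9 noncoding promoter windows, in bases from the annotated start (dashed line at 0); the blue bar is the part of each window under the desert peak and the grey line the whole window. Blue makes up 83.5% of all window bases and holds 32 of 34 cores; both cores of Gm38579 lie outside it.

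Desert sequence held fewer MIXL1 peaks per length than the remainder of the genome. The density was 1.37 peaks per Mb in 538.9 Mb of desert sequence (95% exact Poisson interval 1.27 to 1.47), against 4.04 per Mb in all other sequence of the same chromosomes (3.94 to 4.13). The ratio was 0.338 (0.313 to 0.365; exact conditional binomial test of 2 rates, two-sided, Benjamini-Hochberg adjusted p = 4.19e-228 over 15 tests). Desert peaks therefore stood for 9.45% of peaks on 23.6% of the length. Sequence outside genes but within 100 kb of a protein-coding gene end held 3.94 peaks per Mb, which gave a ratio of 0.347 (0.319 to 0.377; exact test, adjusted p = 2.74e-162). The annotation gives no assembly gaps, so unsequenced bases are included in the lengths.

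Within deserts the density was lower in each class farther from genes. It was 2.57 peaks per Mb at 100 to 200 kb from the nearest protein-coding gene end, 1.69 at 200 to 300 kb, 0.955 at 300 to 500 kb, 0.403 at 500 to 1000 kb and 0.214 beyond 1000 kb. The intervals of neighbouring classes did not overlap, except those of the last pair (0.295 to 0.537 and 0.111 to 0.374 per Mb). Closer to genes, the density was 4.65 per Mb within 10 kb, 3.78 at 10 to 50 kb and 3.25 at 50 to 100 kb. The classes on both sides of the 100 kb limit thus continued in the same direction.

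**Figure D2:**
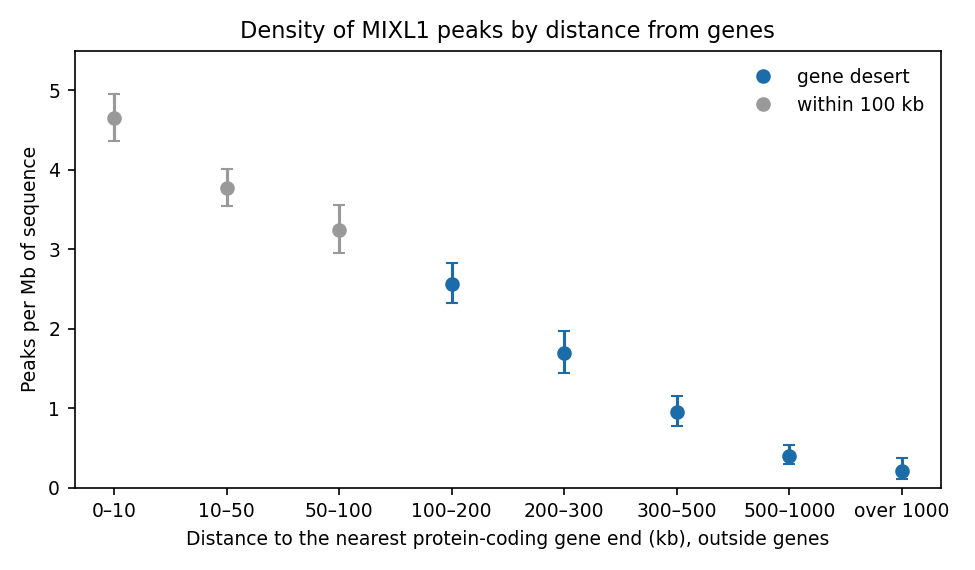
Peaks per Mb of sequence outside genes (y axis) by distance to the nearest protein-coding gene end in kb (x axis, unequal classes); blue points are desert classes, grey points classes within 100 kb, and bars are 95% exact Poisson intervals. Density goes from 4.65 within 10 kb to 0.214 beyond 1000 kb.

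The median desert peak lay 188 kb from the nearest protein-coding gene end (95% interval of the median 178 to 196 kb; quartiles 133 and 274 kb). There were 330 desert peaks more than 200 kb away, 58 more than 500 kb and 12 more than 1000 kb. By definition no farther than the protein-coding one, the nearest gene of any type lay at a median of 31.6 kb (28.2 to 35.2 kb). That nearest gene was a long noncoding RNA for 436 peaks, a pseudogene for 213 and a protein-coding gene for 23. Only 29 desert peaks lay within 1 kb of any gene end, and 632 lay within 100 kb of one. The distance of desert sequence in general from noncoding genes was not measured.

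At the limit itself, the nearest members lay 100.077 kb from Bambi, a BMP pseudoreceptor, 100.194 kb from Tbx20, a cardiac T-box factor, and 100.279 kb from Auts2. The peaks just outside the definition lay 99.945 kb from the nearest gene between Pmepa1 and 1700021F07Rik, 99.774 kb between Jag1 and Btbd3, and 99.452 kb between Supt3 and Cdc5l. These 6 peaks differ in class by less than 1 kb of distance. The farthest member, a 286-bp peak at chr15:14846017-14846302, lay 1669.8 kb from Cdh6 and 1882 kb from Cdh9, both cadherin genes. The next lay between Slitrk5 and Gpc5 (1499 kb from the nearer gene), Pcdh7 and G6pd2 (1440.4 kb), Snx16 and Ralyl (1277 kb), and Nr2f1 and Arrdc3 (1232 kb).

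Desert peaks were about as wide as other peaks at the median, with a larger share of wide ones. The median width was 489 bp (460 to 518) in deserts and 473 bp (467 to 481) elsewhere. Of desert peaks, 52.2% were wider than the median of all peaks, 475 bp, against 49.6% of other peaks (odds ratio 1.11, 0.949 to 1.29; Fisher's exact test, two-sided, adjusted p = 0.201). A width of 1 kb or more was found in 108 desert peaks (14.7%) and in 771 other peaks (10.9%), an odds ratio of 1.40 (1.12 to 1.75; Fisher's exact test, adjusted p = 0.00440). Against the 2426 peaks outside genes within 100 kb of a gene end, of which 11.3% were that wide, the odds ratio was 1.35 (1.05 to 1.72; Fisher's exact test, adjusted p = 0.0212). The 1 kb threshold was chosen after the values were seen. The difference from other peaks was no longer called when deserts began at 50 kb (odds ratio 1.18, Fisher's exact p = 0.0822) or were measured from genes of any biotype (1.55, Fisher's exact p = 0.116).

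The widest desert peak covered 6261 bp at chr1:31958589-31964849, 737 kb from Dnaaf6, a dynein assembly factor, and 211 kb from Khdrbs2, an RNA-binding protein gene. The nearest other peak centre in the list lay 1285914 bp from it. The next was 4091 bp wide, 222 kb from Igfbp7, which encodes a secreted IGF-binding protein, and 3389 kb from Adgrl3, a latrophilin receptor. Peaks of 3726 bp between Abhd5 and Topaz1, 3185 bp between Lama2 and Ptprk, and 3082 bp between Tex29 and A230072I06Rik followed. The remaining 5 of the 10 widest lay between Cntn3 and Chl1 (2576 bp), Lingo2 and 1700009N14Rik (2491 bp), Brinp3 and Pla2g4a (2406 bp), Slc16a7 and Lrig3 (2356 bp), and Fbxo8 and Hand2 (2294 bp). Hand2 is a basic helix-loop-helix factor of heart and limb, and its peak lay 572 kb from it and 155 kb from Fbxo8. None of the 10 lay in a 1-Mb window of 20 or more peaks.

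Desert peaks, which were less dense, had a neighbour less often than other peaks. Another peak lay within 10 kb for 144 desert peaks (19.6%, 16.9 to 22.6%) and for 1827 other peaks (25.9%), beside 25.3% of all peaks. The odds ratio was 0.696 (0.572 to 0.843; Fisher's exact test, adjusted p = 0.000318). It was 0.932 without 1-Mb windows of 20 or more peaks, which held 718 other peaks and 15 desert peaks, and was then not called (Fisher's exact p = 0.493). It was also not called without predicted genes as desert bounds (0.844, Fisher's exact p = 0.0599). Within 50 kb, 42.3% of desert peaks and 54.4% of other peaks had a neighbour (odds ratio 0.614, 0.525 to 0.718; Fisher's exact test, adjusted p = 1.37e-09).

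Among themselves, desert peaks joined within 10 kb formed 56 clusters with 130 members. There were 44 clusters of 2, 8 of 3 and 3 of 4, and the largest held 6. By stretch, 1281 intervals between neighbouring protein-coding genes, or beyond the first or last such gene of a chromosome, contained desert sequence. Among them, 396 (30.9%) held at least 1 desert peak. A single desert peak lay in 221 of these, 2 in 92 and 3 in 44, while 39 stretches with 4 or more held 199 members together. Stretches with a desert peak had a median length of 663 kb, against 368 kb for those without. In these lengths, a stretch at a chromosome start was counted from base 1.

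The stretch with the most desert peaks lay on chromosome 13 between BC048507 and Mtrr, which encodes methionine synthase reductase, with 19 peaks in 481 kb of desert sequence. Of these, 13 had another peak within 10 kb, and widths ran from 248 to 1723 bp. The run began 130.4 kb from BC048507 with peaks at chr13:67994105-67994537 (433 bp), chr13:68003576-68004930 (1355 bp) and chr13:68014842-68016564 (1723 bp). Of the 10 leading stretches this one had the most peaks per length of desert, 39.5 per Mb. Leaving it out changed no call and moved no count by more than 1.5 times.

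The other leading stretches held 5 to 7 desert peaks. There were 13 stretches with 5, and the 2 of them described here are those with the peak nearest to a protein-coding gene end. Zfp608 and Gramd3 on chromosome 18 bounded 7 peaks spread over 1127 kb. Stretches with 6 peaks lay between Ncam1, a neural cell adhesion molecule, and Plet1 on chromosome 9, between Foxl1, a forkhead factor of gut mesenchyme, and 1700018B08Rik on chromosome 8, and between Irx1 and Irx2, which encode Iroquois homeodomain factors, on chromosome 13. Others with 6 lay between Nr2f1, an orphan nuclear receptor of neural development, and Arrdc3 on chromosome 13, between Wac and Fzd8, a Wnt receptor, on chromosome 18, and between Dhx35 and Gm826 on chromosome 2. Auts2 and Castor2 on chromosome 5, and En1, a homeodomain factor of the midbrain-hindbrain boundary, and Insig2 on chromosome 1, bounded 5 each. Per Mb of desert, these 9 stretches ranged from 2.61 (Nr2f1 and Arrdc3) to 32.2 (Foxl1 and 1700018B08Rik).

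The peaks were placed differently within these stretches. All 6 beside Foxl1 lay 111 to 261 kb from it. Near En1 the closest peak lay 303 kb away and the farthest 596 kb, which was 101 kb from Insig2. Between Nr2f1 and Arrdc3, 2 peaks lay 738 and 739.5 kb from Nr2f1, 1 lay 1232 kb away, and 3 lay 160.0 to 345 kb from Arrdc3. Between Wac and Fzd8, 3 peaks lay within 298 kb of Fzd8 and 3 within 542 kb of Wac.

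**Figure D3:**
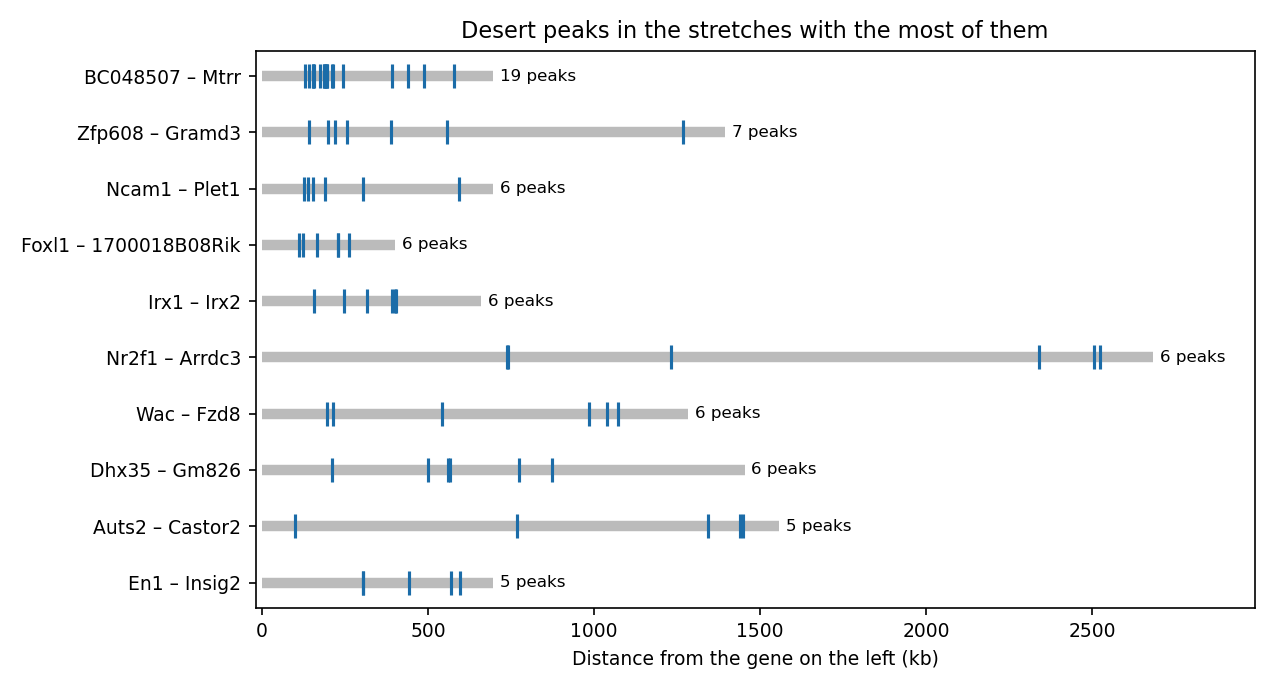
Desert peaks (blue marks) in 10 stretches with the most of them (8 with 6 or more, and 2 of the 13 with 5), by distance in kb from the gene on the left (x axis); each grey bar is the whole interval between the 2 protein-coding genes. The 19 peaks between BC048507 and Mtrr lie mostly in one run at the left, while those between Nr2f1 and Arrdc3 lie far from Nr2f1.

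Chromosomes differed in their desert peaks. The density ranged from 0.717 peaks per Mb of desert on chromosome 15 (0.438 to 1.11) to 2.65 on chromosome 13 (2.10 to 3.32), and was 2.03 (1.54 to 2.63) on chromosome 13 without the stretch between BC048507 and Mtrr. Chromosomes 9 (2.26 per Mb) and 11 (2.05) came next. As a share of all peaks of the chromosome, desert peaks made up 18.1% on chromosome 13, 17.2% on chromosome 18 and 15.5% on chromosome 8, against 3.53% on chromosome 17. The low share on chromosome 17 came with 651 peaks in all, the most of these 18 chromosomes, and a desert density of 1.22 per Mb.

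**Figure D4:**
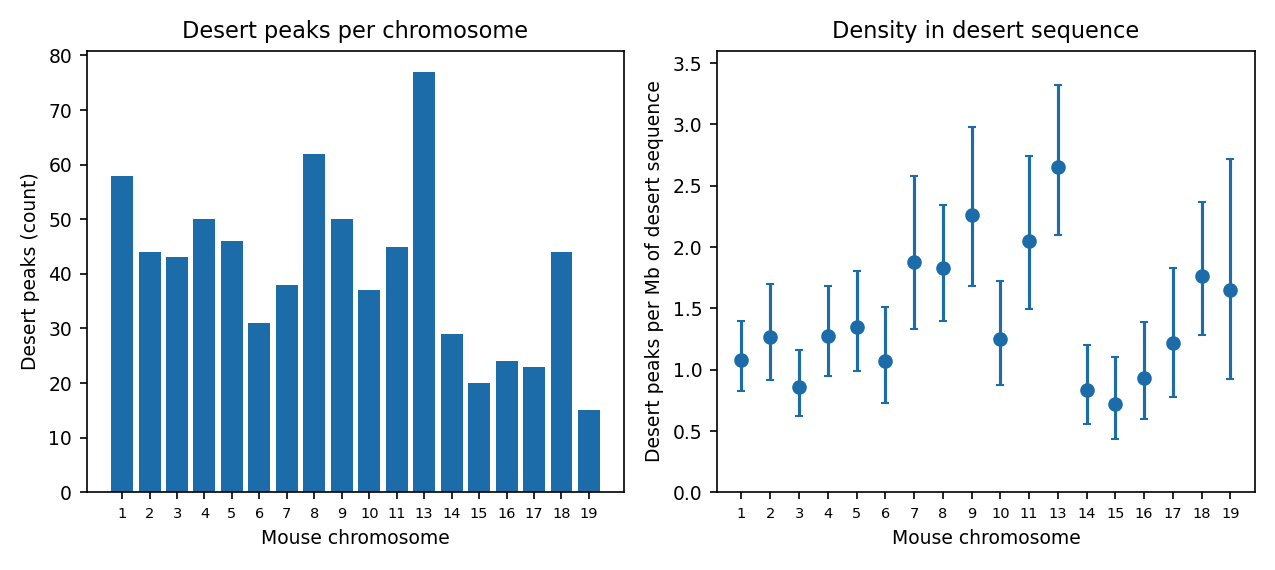
Left, number of desert peaks on each chromosome used; right, desert peaks per Mb of desert sequence with 95% exact Poisson intervals. Chromosome 13 is highest on both panels, with 77 peaks and 2.65 per Mb.

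The genes beside the peaks were described by 8 lists of developmental and signalling genes and 1 list of ribosomal protein genes as a control. Of all 19882 protein-coding genes, 753 (3.79%) had a desert peak in the interval on either side, and of the 2169 genes that border desert sequence 34.7% did. Among developmental list genes these counts were 117 of 449 and, of those bordering a desert, 117 of 231 (50.6%). The 3 lists of transcription factors together had 64 of 117 bordering genes with a desert peak (54.7%). Stretches beside a developmental list gene held 223 desert peaks at 1.11 per Mb, and those beside no such gene held 513 at 1.51 per Mb. Over all 8 lists, the count was 0.997 times the rate of all deserts at the same distance, and the single lists lay on both sides of that.

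Homeobox factors, which set body axes and tissue identities, had the most bordering genes with a peak among transcription factors. A desert peak lay beside 30 of the 45 that border deserts (66.7%), in total 61 peaks at 3.01 per Mb, against 1.37 in all deserts. Density differed with distance, so the count was also set against the rate of all deserts at the same distance, and it was 2.02 times that rate. Other developmental transcription factors had 28 of 61 bordering genes with a peak, 65 peaks at 2.08 per Mb and 1.42 times the rate at the same distance. Factors of streak, endoderm and organiser had 6 of 11, 8 peaks at 3.91 per Mb and 1.81 times that rate.

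The Iroquois genes Irx2 and Irx1 had the most desert peaks beside them within the homeobox list. The 6 peaks between Irx1 and Irx2 were counted for both. The Iroquois clusters are known for remote enhancers in the sequence between their members. Irx2 had 11 desert peaks beside it, 6 toward Irx1 and 5 toward Irx4, and Irx5 had 5 toward Irx3 and 0 toward Irx6. The peaks between Irx1 and Irx2 lay 157, 247, 317, 392, 399 and 402 kb from Irx1, the last 3 at chr13:72355271-72355649, chr13:72362740-72363348 and chr13:72365710-72366155. Between Irx3 and Irx5 the peaks lay 270.4, 283, 313, 332 and 415 kb from Irx3, and 3 of them were wider than 1 kb (1186, 1083 and 1438 bp). Between Irx2 and Irx4, the peaks lay 161, 166, 359, 386 and 400.4 kb from Irx2. The peaks nearest to a gene in these stretches lay 141 kb from Irx5, 157 kb from Irx1 and 161 kb from Irx2. Nkx6-1, a homeodomain factor of ventral neural tube and pancreas, had 5 peaks, at 121, 134, 139.8, 162 and 336 kb.

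Among other developmental factors, Sox9, which directs cartilage and testis formation and is known for distant enhancers, had 5 peaks at 239.5, 280.3, 369.7, 584 and 938 kb. Tbx20 had 4 at 100.2, 104, 109.8 and 193 kb. Foxl1 and Nr2f1, each with 6, are given above. The interval between Tbx20 and Herpud2 holds 90.9 kb of desert sequence, against 807 kb between Gm11677 and Sox9.

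Few desert peaks lay beside streak and organiser genes, which bordered 2.04 Mb of desert in all. Lhx1, a LIM-homeodomain factor of the organiser, had 3 at 137, 181 and 182 kb in 87.5 kb of desert sequence. Those at 181 and 182 kb lay nearer to Mrm1 on the other side, at 107 and 106 kb. Eomes, a T-box factor of the streak, had 1 peak at 125 kb, Gata6, a GATA factor of endoderm and heart, had 1 at 129 kb, and Foxa2, a forkhead factor of endoderm and node, had 1 at 137 kb. No gene of this list had a desert peak when deserts began at 200 kb.

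Signalling lists had small counts. FGF signalling had 7 of 11 bordering genes with a peak and 15 peaks (4.02 per Mb, 2.07 times the rate at the same distance). No gene of that list had a desert peak when deserts were measured from genes of any biotype, and 4 had one among the wider peaks alone. Dusp4, a phosphatase of MAP kinases, had 5 of the 15 peaks, and Spred2, an inhibitor of RAS and MAP kinase signalling, had 3. Spry2, a feedback inhibitor of FGF signalling, and the ligand Fgf18 had 2 each. Those of Fgf18 lay nearer to Smim23, at 108 and 122 kb, and some of Dusp4 nearer to Saraf, from 110 kb. Wnt signalling had 5 of 13 with a peak and 11 peaks (3.65 per Mb, 1.86 times). Of these, 6 were beside the receptor Fzd8, 2 beside the factor Lef1 and 1 each beside the inhibitors Axin2 and Dkk1. The peak of Axin2 lay nearer to Rgs9, at 119 kb, and that of Dkk1 nearer to Mbl2, at 120 kb. Notch signalling had 3 of 5 with a peak and 5 peaks (3.73 per Mb, 2.06 times), 3 beside the target Hes1 and 1 each beside the ligands Dll1 and Jag1. Nodal, TGF-beta and BMP signalling had 7 of 15 with a peak and 10 peaks (1.28 per Mb, 0.946 times). Of these 4 were beside the ligand Bmp4, at 167, 211, 249 and 322 kb, and 1 each beside Bambi, the ligand Bmp7 and the effector Smad2.

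Neuronal adhesion and guidance genes bordered the most desert sequence and had the lowest density. A peak lay beside 32 of the 71 bordering genes (45.1%), but their 136 Mb of desert held 58 peaks, 0.425 per Mb and 0.472 times the rate of all deserts at the same distance. Epha4, a guidance receptor, and Adgrl2, a latrophilin, had 5 each, Adgrl3 had 4 and Tenm4, a teneurin, had 3. The 4 counted for Adgrl3 lay 3259 to 3473 kb from it and 138 to 352 kb from Igfbp7, the gene on the other side. Those of Epha4 lay 116 to 1699 kb from it, those of Adgrl2 384 to 2345 kb and those of Tenm4 129 to 483 kb. The share of genes with a peak and the density of peaks therefore gave different orders of the lists.

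Ribosomal protein genes, taken as a control, had 4 genes bordering a desert, of which 3 had a peak and 10 peaks in all (11.1 per Mb, 5.58 times the rate at the same distance). The 5 peaks beside Rps24 lay toward Zmiz1, the 3 beside Rpl38 toward Sdk2 and the 2 beside Rpl34 toward Lef1, which is in the Wnt list. The control list was thus denser than each developmental list, on 0.905 Mb of desert, and the list densities are descriptions of these stretches, with no test of a list.

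**Figure D5:**
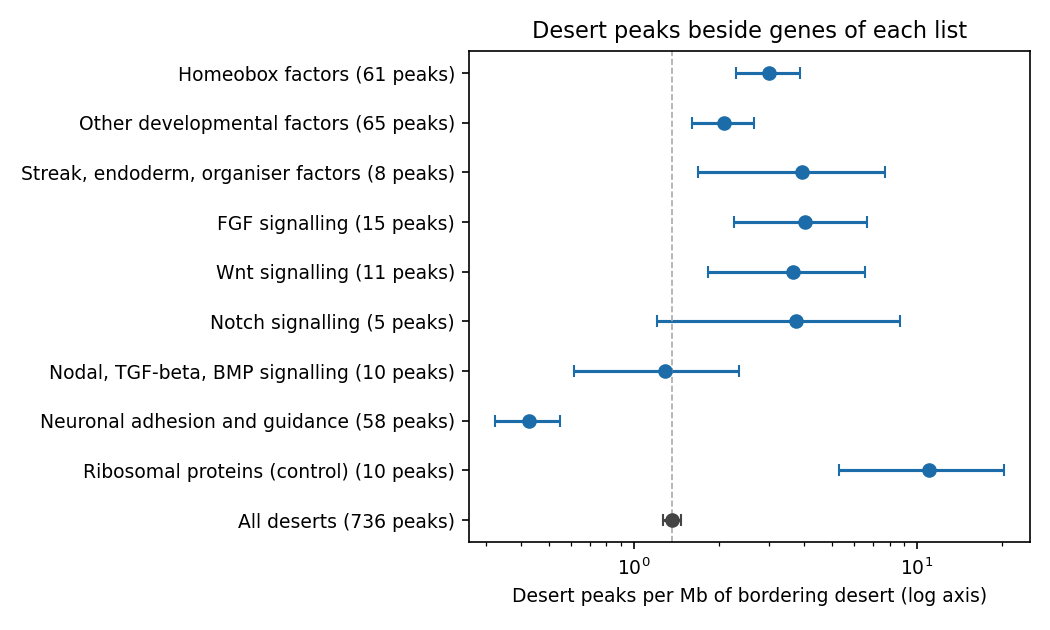
Desert peaks per Mb of the desert sequence bordering genes of each list (x axis, log scale) with 95% exact Poisson intervals, which treat peaks as independent; the dashed line is the 1.37 per Mb of all deserts. Homeobox factors lie at 3.01, neuronal adhesion and guidance genes at 0.425 and the ribosomal control at 11.1 from 10 peaks.

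A developmental list gene on both sides was found for 27 desert stretches. A desert peak lay in 12 of them, with 33 peaks in all, beside 396 of all 1281 stretches (30.9%). Stretch length was not taken into account. After the 3 Iroquois stretches came Sall1, a zinc-finger factor, and Tox3 with 4 peaks and Meis1, a homeodomain cofactor, and Spred2 with 3. Stretches between Cdh6 and Cdh9, between Ets1 and Kirrel3, and between Epha4 and Pax3 had 2 each. Several long stretches between 2 neuronal genes had 0, such as those between Pcdh20 and Pcdh9 (4034 kb of desert), Cdh8 and Cdh11 (2628 kb), and Slitrk1 and Slitrk6 (1449 kb). These stretches were singled out after their values were seen.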

How the data were processed

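Per the submitters' processing notes, the tools were Bowtie2, MACS2, SAMtools and CASAVA 1.8.2 and the build mm10. Threshold, filters, use of input and pooling are not stated there. The authors deposited 1 list of peak positions (chromosome, start, end; no score) for 4 libraries. Positions are printed 1-based.

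Genes were the RefSeq spans of GRCm38.p6 (49214 genes, 21523 protein-coding); 442 genes ending within the first 3 Mb of a chromosome were left out. Chromosome length ran from 3 Mb to the last gene end. Distances were from the peak centre to the nearest gene end. Densities were compared by exact conditional binomial tests and shares by Fisher's exact tests, all two-sided. The 15 main tests were adjusted by Benjamini-Hochberg and the p-values of the alternatives were not, each with a threshold of 0.05. Medians have order-statistic intervals. The desert rule and the density test were checked on simulated peaks, which were placed independently of each other. The Fisher's exact tests were not checked in this way. Sequence at the peaks themselves was not used here, so planned motif tests were left out, and RefSeq promoter windows were described instead, chosen after seeing the data. Named genes flank the 10 stretches with the most desert peaks (the last 2 of them taken from 13 tied at 5, by the peak nearest to a gene), the 10 widest, the 5 farthest and the 3 peaks on each side of the limit, plus up to 4 genes per list; others were chosen after their values were seen. The members and lists were chosen with earlier results of these data known. Software was scipy 1.17.1, numpy 2.4.6 and pandas 2.3.3 under Python 3.11.15, with figures by matplotlib 3.10.9.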

Additional observations from a re-analysis of the deposited data

Results flagged for a closer look

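Desert peaks on chromosomes 12 and X entered no main comparison and are given as signal outside the main measurement. They were included only in the alternative that adds both chromosomes, where the density ratio was 0.337. On chromosome 12, 167 of 1541 peaks (10.8%) met the same rule, a density of 4.82 per Mb of desert (95% exact Poisson interval 4.12 to 5.61). A desert peak lay in 48 of its 70 desert stretches, beside 30.9% of those on the main chromosomes. Chromosome 12 also held more peaks in all than any of the 18 main chromosomes, where the most was 651. The density in other sequence of chromosome 12 was not measured. On chromosome X, 18 of 71 peaks met the rule (25.4%), a density of 0.340 per Mb (0.202 to 0.538).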

How the results depend on the processing

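The lower peak density in deserts kept its direction and call under each of the 11 alternatives run, with ratios from 0.167 to 0.428. Calls gained or lost under the alternatives rest on unadjusted p-values, unlike the adjusted main calls. The number of desert peaks was 1198 beyond 50 kb, 330 beyond 200 kb, 104 when genes of any biotype bounded a desert and 384 for the wider peaks alone (those above the median width). In the same order of settings the clusters numbered 97, 20, 5 and 22, and 104 when peaks were joined within 50 kb. Developmental list genes beside a desert peak numbered 68 beyond 200 kb, 36 with genes of any biotype and 72 for the wider peaks. With genes of any biotype, the list counts were 15 for neuronal adhesion, 10 for other developmental factors, 5 for homeobox factors, at most 2 for each other developmental list and 0 for FGF signalling and the ribosomal control. For the share of peaks above the median width, the odds ratio against other peaks was 0.795 with genes of any biotype, a reversal, and 1.26, now called, for the wider peaks. For the wider peaks the median was taken anew among them, so that odds ratio refers to a higher width and is not the same measure. Against peaks outside genes within the limit it was 0.797 with genes of any biotype, a reversal, and 1.17, now called, beyond 50 kb. The share of peaks of 1 kb or more against other peaks lost its call beyond 50 kb (1.18) and with genes of any biotype (1.55), and against peaks outside genes within the limit beyond 50 kb (1.10), with genes of any biotype (1.44) and for the wider peaks (1.30). The share with another peak within 10 kb lost its call without predicted genes as bounds (0.844 and, against peaks outside genes, 0.871), without windows of 20 or more peaks (0.932 and 0.895), and for the wider peaks (0.766, against peaks outside genes). The cause of these changes was not tested. No paired analysis was possible because the 4 libraries were given as 1 peak list, so leaving out a library was not possible either. The planned motif alternatives at peaks were not run. Leaving out the stretch between BC048507 and Mtrr was chosen after seeing the data. Depth is unknown, so a desert without a listed peak is not shown to be unbound.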

Other observations

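For 7 desert peaks the nearest gene of any type was a microRNA gene. The closest were a 285-bp peak 0.756 kb from Mir6356, between Mc2r and Tcf4, and a 294-bp peak 3.23 kb from Mir802, between Runx1 and Setd4. The others lay 24.4 kb or more from Mir466j, Mir101c, Mir378d, Mir6343 and Mir6354.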
